A study of Mus musculus with 56 samples.

Results

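Cortical thymic epithelial cells (cTECs) sorted 3 days after parturition (D3) were compared with cTECs sorted on the day of birth (D0), the interval in which the involuted maternal thymus starts to regrow. The comparison held 6 samples, 3 of D0 and 3 of D3, chosen by their labelled cell type and time point, out of 28 cTEC samples and 56 samples in the series. All were thymi of B6.SJL females mated with BALB/cJ males, and no mother nursed, since every litter was withdrawn on the day it was born. Each sample came from 1 mouse, so each replicate is 1 animal; the ages of the mice are not given in the sources used here. cTECs were the EpCAM+ CD45- UEA1- cells of the digested stroma, UEA1 being a lectin that binds most medullary epithelium. The single D1 and D2 samples are given as values between the ends, and the 3 samples of non-pregnant controls (NPC) as a reference level, without a test.

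cTECs line the thymic cortex, where they attract and hold lymphoid progenitors, commit them to the T lineage and present the peptides on which thymocytes are positively selected. The transcription factor FOXN1 drives this programme. Among its known targets in these cells are the chemokines *Ccl25* and *Cxcl12*, the Notch ligand *Dll4* and the proteases that cut selecting peptides. Late pregnancy shrinks the thymus, which regrows after birth.

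The labelled cell type was checked against its markers. *Foxn1* was between 136 and 222 FPKM (read fragments scaled to transcript length and to the size of the library) in the 6 samples, and *Psmb11*, the cTEC-restricted proteasome subunit, between 79.2 and 332 FPKM. Of the markers of medullary epithelium (mTECs), *Ccl21a* was abundant, between 3646 and 5617 FPKM, so the UEA1- gate did not hold cortical transcripts alone. The medullary markers *Aire* and *Fezf2* were at lower levels, between 2.63 and 12.55 FPKM and between 17.94 and 63.73 FPKM. *Ptprc*, which encodes the CD45 used to remove blood cells, was between 0.41 and 6.11 FPKM. *Epcam*, the surface marker used for the sort, was 145, 135 and 138 FPKM at D0 and 96.4, 103 and 108 FPKM at D3, without overlap, and its log2 fold change of -0.48 did not pass the test (SE 0.31, adjusted p = 0.37).

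Replicate 2 of D3 stood apart from the other cTEC samples. It had no count for 5714 of the 15845 tested genes (36.1%), whereas the other 27 cTEC libraries lacked between 397 and 3379 of them, and the first principal component of the 8 samples from D0 to D3 (50% of the variance) separated it from the other 7. The total count of D3 replicate 2, 7908092, was no lower than that of the other D3 libraries (7304533 and 6877077). All 3 D0 libraries were deeper, from 10971733 to 32439692 counts, so depth and day cannot be told apart. The D1 sample stood apart on the second component (19.2%). In D3 replicate 2 RSEM's effective gene length was more than 1.5-fold away from its median over the cTEC samples for 21.2% of genes, against 2.8% to 17.9% elsewhere, and for such genes FPKM and counts can disagree.

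**Figure D1:**
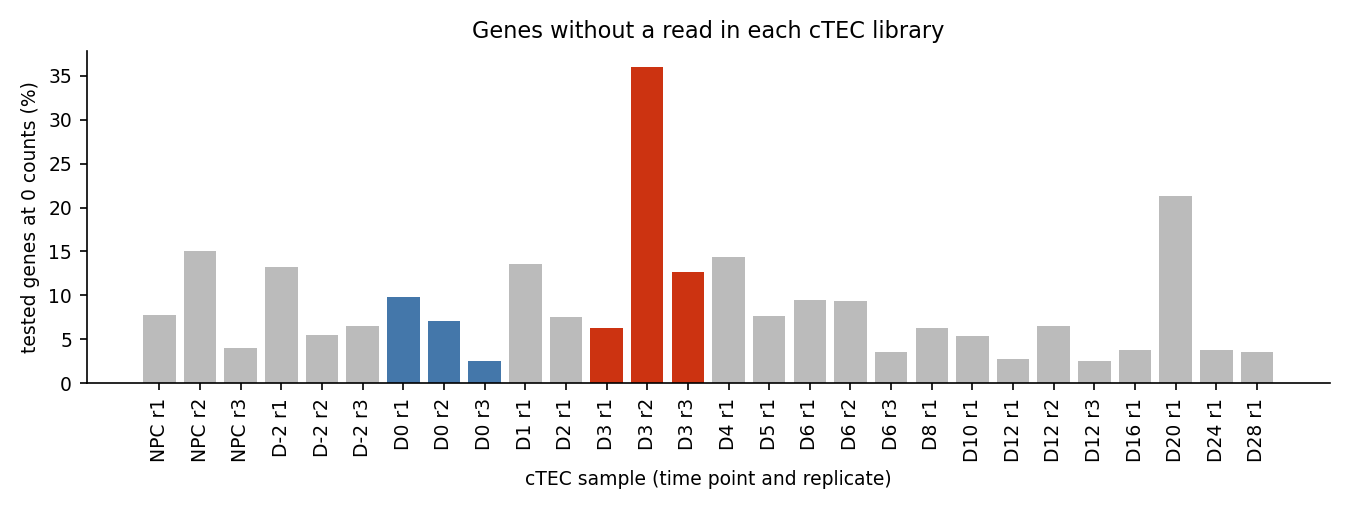
Share of the 15845 tested genes with 0 counts in each of the 28 cTEC libraries (y axis, percent), ordered by time point and replicate, with D0 in blue, D3 in red and the other time points in grey. D3 replicate 2 reaches 36.1%, and the next highest bar is the D20 sample at 21.3%.

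Few genes passed the test, and all of them were higher at D3. With limma-voom, and a threshold of 2-fold together with an adjusted p of 0.01 or less, 4 genes were called higher at D3 (0.0252% of those tested) and none lower, while 3471 genes (21.9%) had an unadjusted p under 0.05. On the same counts edgeR's quasi-likelihood test called 0 genes (1381 at an unadjusted p under 0.05), and DESeq2 called 37 higher and 15 lower. The 4 genes were *Prss16*, *Crip3*, *Fxyd2* and *Tbata*, of which *Prss16* and *Tbata* are on the list of cTEC markers.

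*Prss16* encodes the thymus-specific serine protease of cTEC endosomes, which shapes the peptides shown to CD4 thymocytes. Its level was 519, 623 and 390 FPKM at D0 and 1714, 2451 and 1325 FPKM at D3. The lowest D3 sample lay above the highest D0 sample, and the single samples stood between at D1 (975 FPKM) and within the D3 range at D2 (1881 FPKM). The log2 fold change was 1.82 (SE 0.24, adjusted p = 0.0050), a 3.54-fold rise. *Crip3*, a LIM-domain protein first described in the thymus, was 96.8, 98.8 and 109 FPKM at D0 and 488, 680 and 246 FPKM at D3, and it rose by 1.89 on the log2 scale (SE 0.25, adjusted p = 0.0050). Its D0 samples were within a narrow band, and its D3 samples spread over a wide one.

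*Tbata*, named for its expression in thymus, brain and testis, rose from 649, 602 and 556 FPKM to 2489, 3329 and 1405 FPKM, with a log2 fold change of 1.86 (SE 0.27, adjusted p = 0.0097). *Fxyd2*, the gamma subunit that tunes the sodium-potassium pump, rose from 119, 166 and 92.7 FPKM to 506, 504 and 370 FPKM, by 1.85 on the log2 scale (SE 0.25, adjusted p = 0.0050). It was the most even of the 4 among the D3 mice. In *Prss16*, *Crip3* and *Tbata* replicate 2 was the highest D3 sample and replicate 3 the lowest, whereas in *Fxyd2* replicates 1 and 2 were nearly equal.

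Without D3 replicate 2 no gene reached the call (876 had an unadjusted p under 0.05). The changes themselves moved little: *Prss16* was 1.64 higher on the log2 scale, *Crip3* 1.71 and *Fxyd2* 1.83, each with an adjusted p of 0.035, and *Tbata* 1.63 (adjusted p = 0.11). *Prss16*, *Crip3* and *Fxyd2* were the 3 genes past a fold of 2 and an adjusted p of 0.05 in that fit (0.0189% of genes).

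**Figure D2:**
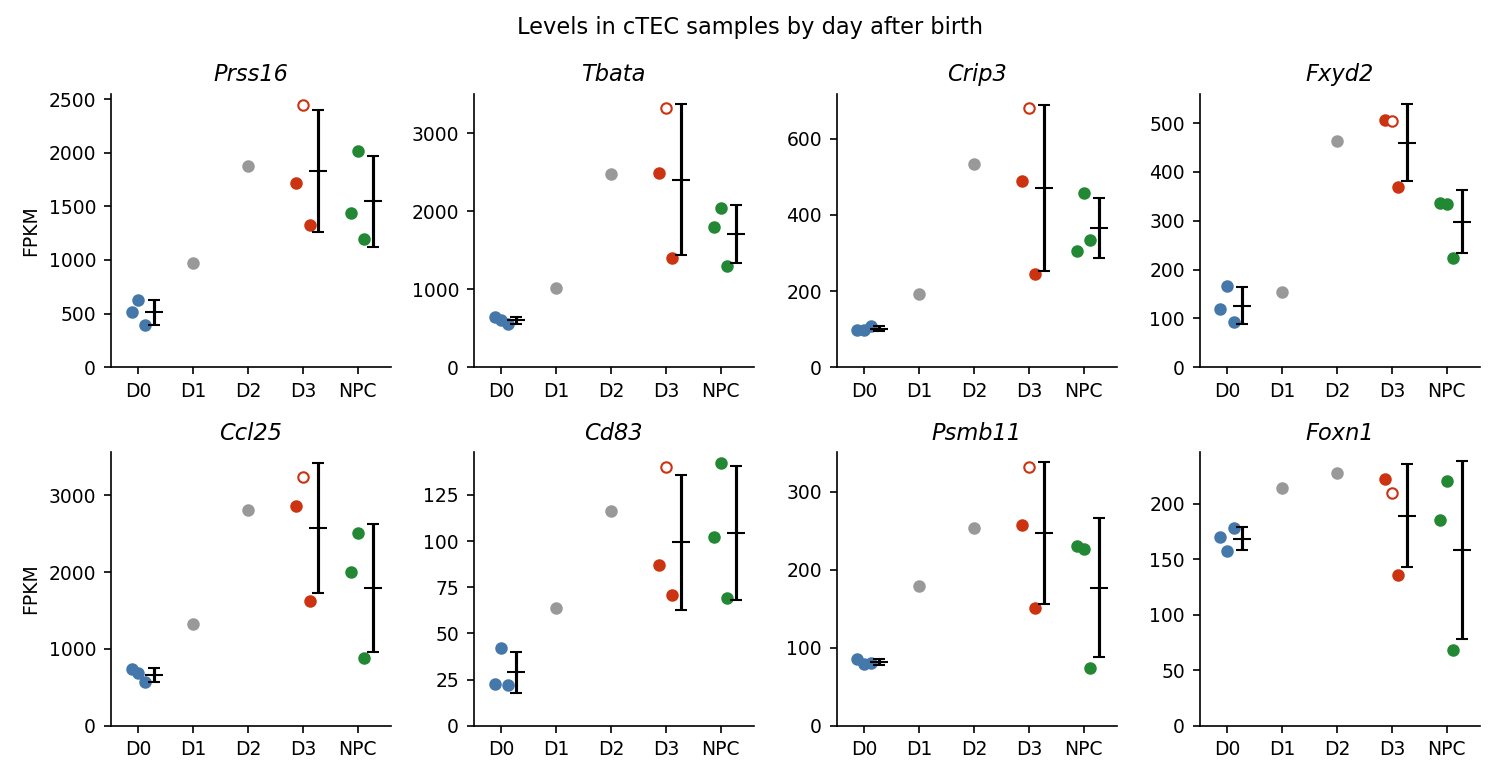
FPKM (y axis, linear, from 0) of 8 genes in each cTEC sample at D0 (blue), D1 and D2 (grey, 1 sample each), D3 (red, with replicate 2 as an open circle) and in NPC (green), with the mean and SD of the groups of 3 in black. The D3 samples of every gene but *Foxn1* lie above all D0 samples, and *Foxn1* overlaps.

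Much of the change in the 4 called genes was present in the D2 sample, and less of it in the D1 sample. On the log2(FPKM + 0.5) scale the D1 sample had covered 52.7% of the way from the D0 mean to the D3 mean for *Prss16*, 44.1% for *Crip3*, 39.9% for *Tbata* and 17.1% for *Fxyd2*. The D2 sample had covered between 101% and 114% for these 4 genes. Both are single samples, so their own spread is not known. In NPC, *Prss16* was 1550 ± 425 FPKM (SD, n = 3), *Crip3* 366 ± 79.9, *Tbata* 1713 ± 374 and *Fxyd2* 298 ± 65.0. The D3 means were 1830 ± 572, 471 ± 218, 2408 ± 964 and 460 ± 78.2 FPKM in the same order, each above the NPC mean. For *Prss16*, *Crip3* and *Tbata* the D3 mean included D3 replicate 2 as its highest sample, and D3 replicate 3 lay below the NPC mean. The difference between D3 and NPC was not tested.

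At an adjusted p of 0.05 with the same fold, 7 further genes were higher and 3 lower at D3. This made 11 higher (0.0694%) and 3 lower (0.0189%), or 14 in all (0.0884% of those tested). They are described here after their values were seen, except *Ccl25*, *Cd83* and *Tcf7*, which belong to the lists below, and *Fabp5*. *Fabp5* is on a list of fatty acid and lipid droplet genes. Of its 19 tested genes 3 (15.8%) lay higher in all 3 D3 samples than in any D0 sample, and 1 (5.26%) lower. Over all tested genes the shares were 5.76% and 7.95%. The median log2 fold change of that list was -0.12, against -0.25 over all genes. *Ccl25* draws CCR9-bearing progenitors into the thymus. It was 741, 683 and 564 FPKM at D0 and 2864, 3240 and 1626 FPKM at D3, 1.88 higher on the log2 scale (SE 0.34, adjusted p = 0.034). *Cd83*, which keeps MHC class II on the cTEC surface, was 22.7, 41.8 and 22.2 FPKM against 86.9, 140 and 70.7 FPKM, 1.73 higher (SE 0.31, adjusted p = 0.034). Neither gene overlapped between the days.

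*Fabp5*, a carrier of fatty acids, was 400, 359 and 354 FPKM at D0 and 966, 1887 and 730 FPKM at D3 (log2 fold change 1.54, SE 0.26, adjusted p = 0.034). *Hhip*, which sequesters hedgehog ligands, was 1.03 higher on the log2 scale (SE 0.18, adjusted p = 0.034), *Cdk20*, a cyclin-dependent kinase, 1.47 (SE 0.23, adjusted p = 0.015), and *Pithd1* 1.55 (SE 0.27, adjusted p = 0.034). *Pithd1* was highest in replicate 2: it was 75.3, 292 and 118 FPKM in the D3 samples and 1.11 higher on the log2 scale without that library. *Tcf7*, the T-cell factor of early thymocytes, was 10.97, 9.66 and 4.77 FPKM at D0 and 28.5, 98.5 and 21.5 FPKM at D3 (log2 fold change 2.58, SE 0.47, adjusted p = 0.034), and 1.88 without replicate 2 (adjusted p = 0.39).

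The 3 lower genes were scarce. *Rgs16*, a brake on G-protein signalling, had 29, 162 and 108 counts at D0 and 0 in each D3 library, at least 30.8-fold lower against a floor of 3 counts over the D3 group (adjusted p = 0.022). *Slc27a2*, a long-chain fatty acid transporter, had 51, 218 and 96 counts at D0 and 1, 0 and 0 at D3. *B4galt2*, a galactosyltransferase, had 56, 226 and 166 counts at D0 and 9, 0 and 0 at D3. Both had an adjusted p of 0.034. In the D1 and D2 samples *Rgs16* was at 2.11 and 2.39 FPKM, no lower than at D0. *Fat2*, an atypical cadherin, had an adjusted p of 0.034 with a change short of the fold threshold, -0.94 on the log2 scale (SE 0.17), which made 15 genes (0.0947%) at that p with any fold. It was 20.9, 26.5 and 28.2 FPKM at D0, 12.6 at D1, 10.8 at D2 and 11.5, 12.3 and 17.4 FPKM at D3.

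The genes by which cTECs support thymopoiesis were higher at D3 as a group, with *Foxn1* itself an exception. Of the 13 genes on this list the study follows 11 in these samples, so their count is not independent evidence of a direction, and *Ly75* and *Tbata* were added. 9 of the 13 lay higher in all 3 D3 samples than in any D0 sample, where 5.76% of all tested genes did, and none lay lower in all (7.95% of all genes). 2 were called (*Prss16* and *Tbata*), and *Ccl25* and *Cd83* passed at 0.05. The median log2 fold change was 0.85, or 0.77 without D3 replicate 2, while the median of all genes was -0.25, or -0.01 without it.

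*Foxn1* was 170, 157 and 178 FPKM at D0, 214 at D1, 228 at D2 and 222, 209 and 136 FPKM at D3. The 3 D0 samples lay inside the D3 range, and the log2 fold change was 0.10 (SE 0.37, adjusted p = 0.90). Its NPC level was 158 ± 80.0 FPKM. With an SE of this size a moderate rise or fall was not detectable.

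Of the signals to progenitors, *Dll4*, the Notch ligand that commits them to the T lineage, was 8.19, 10.2 and 10.3 FPKM at D0 and 23.8, 19.0 and 18.1 FPKM at D3, without overlap (log2 fold change 0.98, SE 0.24, adjusted p = 0.14). *Cxcl12*, which positions double-negative thymocytes, was 509, 526 and 437 FPKM against 707, 850 and 735 FPKM (0.59, SE 0.15, adjusted p = 0.15). *Il7*, their survival cytokine, was 89.5, 77.9 and 80.9 FPKM against 113, 119 and 103 FPKM (0.39, SE 0.18, adjusted p = 0.21). Each was higher in all 3 D3 mice, and the call was not reached. *Kitl*, the stem cell factor, was 0.03 higher on the log2 scale (SE 0.23, adjusted p = 0.96). Its FPKM of 91.1 in D3 replicate 2, against 14.3 and 41.8 in the other D3 samples, came with an effective length of 654 bases there and at least 1710 bases in the others, and its counts relative to the library total (CPM) were 59.6 there, within the D0 range of 49.4 to 66.8.

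Of the proteases for positive selection, *Psmb11* was 85.7, 79.2 and 80.5 FPKM at D0, 179 at D1, 254 at D2 and 257, 332 and 151 FPKM at D3. The groups did not overlap, and the log2 fold change of 1.49 did not pass (SE 0.39, adjusted p = 0.15). *Ctsl*, the lysosomal protease that works beside PRSS16, was 1306, 1651 and 1161 FPKM against 2221, 3035 and 2368 FPKM (0.85, SE 0.17, adjusted p = 0.061). *Ly75* and *Enpep*, the surface antigens CD205 and Ly51 by which cTECs are recognised, overlapped between the days, with log2 fold changes of 0.59 (SE 0.23, adjusted p = 0.19) and -0.42 (SE 0.29, adjusted p = 0.40). *Pax1*, a transcription factor of the third pharyngeal pouch from which the thymus forms, was higher in all 3 D3 samples, by 0.45 on the log2 scale (SE 0.29, adjusted p = 0.38). It is on a list of 18 transcription factors of thymic epithelium. Of these 2 (11.1%) lay above in all samples and 2 (11.1%) below, against 5.76% and 7.95% of all genes. The median of that list was -0.33, or -0.25 without D3 replicate 2, against -0.25 and -0.01 over all genes.

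The FOXN1 protein binds DNA through a short ACGC core. The bases before the start sites of 3 of the genes that lay higher at D3 are shown for that core. They were taken from RefSeq (GRCm38.p6), where 10 of the 13 thymopoiesis genes had an entry, and run 5′ to 3′ over the 250 bases before each start. Capitals mark ACGC, or GCGT where the core lies on the opposite strand, and the letters ACGCGT would count on both. *Tbata* is at chr10:61171714-61171963, *Ccl25* at chr8:4324960-4325209 and *Psmb11* at chr14:54625060-54625309, all on the plus strand.
Tbata: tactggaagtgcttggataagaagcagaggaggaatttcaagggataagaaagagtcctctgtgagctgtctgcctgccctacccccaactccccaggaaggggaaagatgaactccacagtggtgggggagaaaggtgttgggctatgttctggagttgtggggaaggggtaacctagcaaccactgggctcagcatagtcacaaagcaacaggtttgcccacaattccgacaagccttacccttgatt
Ccl25: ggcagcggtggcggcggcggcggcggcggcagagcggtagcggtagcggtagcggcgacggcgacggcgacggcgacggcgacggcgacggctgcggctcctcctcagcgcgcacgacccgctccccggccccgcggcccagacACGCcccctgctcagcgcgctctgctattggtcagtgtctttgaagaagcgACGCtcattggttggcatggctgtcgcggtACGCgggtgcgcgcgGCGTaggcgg
Psmb11: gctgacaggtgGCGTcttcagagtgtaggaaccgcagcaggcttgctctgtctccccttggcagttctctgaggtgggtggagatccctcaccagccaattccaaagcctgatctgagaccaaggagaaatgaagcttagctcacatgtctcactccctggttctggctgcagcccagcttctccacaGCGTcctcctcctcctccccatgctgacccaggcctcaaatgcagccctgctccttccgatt
The *Ccl25* window holds the core 4 times, that of *Psmb11* 2 times, and that of *Tbata* does not hold it. Of the 10 thymopoiesis genes with an entry, 8 (80%) held at least 1 core on either strand, and so did 49.8% of the 27025 promoters in the table. The share was as high in genes of the cell cycle, with 82.1% of the G2/M and 81.8% of the G1/S genes described below, and it was 3 of 6 (50%) among the genes higher at D3 at an adjusted p of 0.05 that had an entry. A match of 4 letters is a description and not a site.

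The MHC genes themselves differed by little between the days, while proteases on the same lists were higher at D3. Of 17 class II presentation genes, 3 lay above in all samples (17.6%), including the called *Prss16* and also *Ctsl*, and 1 lay below (5.88%), with a median log2 fold change of -0.02. Of 16 class I genes 2 lay above (12.5%), *Psmb11* and *Psmb10*, and 1 below (6.25%), with a median of -0.03. Over all tested genes 5.76% lay above and 7.95% below, and the median was -0.25. *Cd74*, the invariant chain, was 6561, 6815 and 6317 FPKM at D0 and 6949, 6966 and 6367 FPKM at D3 (log2 fold change 0.01, SE 0.09, adjusted p = 0.97). *H2-Aa* and *H2-Ab1*, the chains of the class II molecule, differed by 0.10 (SE 0.13, adjusted p = 0.70) and 0.07 (SE 0.12, adjusted p = 0.75). *B2m* and *H2-K1* of class I were at -0.10 (SE 0.17, adjusted p = 0.76) and -0.20 (SE 0.15, adjusted p = 0.44). The *Psmb10* subunit of the immunoproteasome, chosen after its values were seen, was 274, 235 and 284 FPKM at D0 and 571, 463 and 425 FPKM at D3 (0.88, SE 0.23, adjusted p = 0.15).

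The core of the proteasome, the particle into which PSMB11 is built, had higher levels at D3. This list was added after values were seen. 8 of its 14 subunits lay higher in all 3 D3 samples (57.1%, against 5.76% of all genes), and the D2 sample was above every D0 sample for 14 of 14, as for 28.1% of all tested genes. None was called, the lowest adjusted p being 0.073. The median log2 fold change was 0.49, or 0.36 without D3 replicate 2. *Psma4*, which reached that lowest p, was 98.8, 82.3 and 86.4 FPKM at D0 and 136, 195 and 134 FPKM at D3 (0.75, SE 0.16). *Psmb4* was 0.80 higher (SE 0.20, adjusted p = 0.13), *Psmb1* 0.50 (SE 0.20, adjusted p = 0.20) and *Psma7* 0.25 (SE 0.17, adjusted p = 0.38).

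Keratins, the intermediate filaments of epithelium, differed among themselves. *Krt8*, the cortical keratin, was 1486, 1274 and 1337 FPKM at D0 and 2713, 2944 and 1899 FPKM at D3, and its partner *Krt18* was 3152, 2489 and 2876 FPKM against 6334, 6126 and 3766 FPKM. Neither overlapped, and their log2 fold changes were 0.83 (SE 0.22, adjusted p = 0.16) and 0.86 (SE 0.31, adjusted p = 0.19). *Krt17* was 0.54 higher (SE 0.18, adjusted p = 0.19) without overlap, while the medullary *Krt5* overlapped and was at 0.03 (SE 0.24, adjusted p = 0.96). In all, 4 of 14 keratins (28.6%) lay above in every sample and 1 (7.14%) below, against 5.76% and 7.95% of all genes.

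Transcripts of thymocytes, the T-cell precursors that cTECs enfold, were higher in the D3 sorts. The summed level of the 20 thymocyte markers was between 36.1 and 59.3 FPKM at D0, 89.9 at D1, 292 at D2, between 134 and 444 FPKM at D3 and between 47.4 and 253 FPKM in NPC. 10 of the 20 (50%) lay higher in all 3 D3 samples and none lower, against 5.76% and 7.95% of all genes. The median log2 fold change was 1.71, or 1.95 without D3 replicate 2, against -0.25 and -0.01 over all genes. D3 replicate 2 had the largest sum although 7 of the 20 markers had no count in it. Of single markers, *Lck*, the kinase of the T-cell receptor, was 6.87, 9.98 and 8.07 FPKM at D0 and 25.5, 108 and 24.6 FPKM at D3 (1.58, SE 0.35, adjusted p = 0.099).

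The co-receptor genes *Cd8b1* and *Cd8a* were 2.87 (SE 0.67, adjusted p = 0.12) and 3.16 higher (SE 0.64, adjusted p = 0.069), and *Cd3g* of the receptor complex 3.35 (SE 1.43, adjusted p = 0.20). *Dntt* and *Rag1*, which build the receptor genes, were 2.31 (SE 0.51, adjusted p = 0.099) and 1.84 higher (SE 0.53, adjusted p = 0.17). Of this list only *Tcf7* passed at 0.05. Not every defining marker followed: *Cd3e* was 4.10, 3.13 and 1.13 FPKM at D0 and 1.59, 0 and 4.68 FPKM at D3. *Rag2* was at 0 in all D0 samples and in D3 replicate 2, and at 1.0 and 0.9 FPKM in D3 replicates 1 and 3. How much of any result these transcripts carry was not tested, and in sorted bulk samples more cells of a type and more RNA per cell cannot be told apart. Summed markers of other cells overlapped or were lower: macrophage and dendritic markers summed to between 66.3 and 72.1 FPKM at D0 and between 29.3 and 53.1 at D3, and fibroblast and mural markers to between 250 and 333 FPKM and between 211 and 330 FPKM. B cell markers summed to between 91.4 and 210 FPKM and between 99.9 and 149 FPKM, and endothelial markers to between 10.2 and 18.9 FPKM and between 9.19 and 23.97 FPKM.

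**Figure D3:**
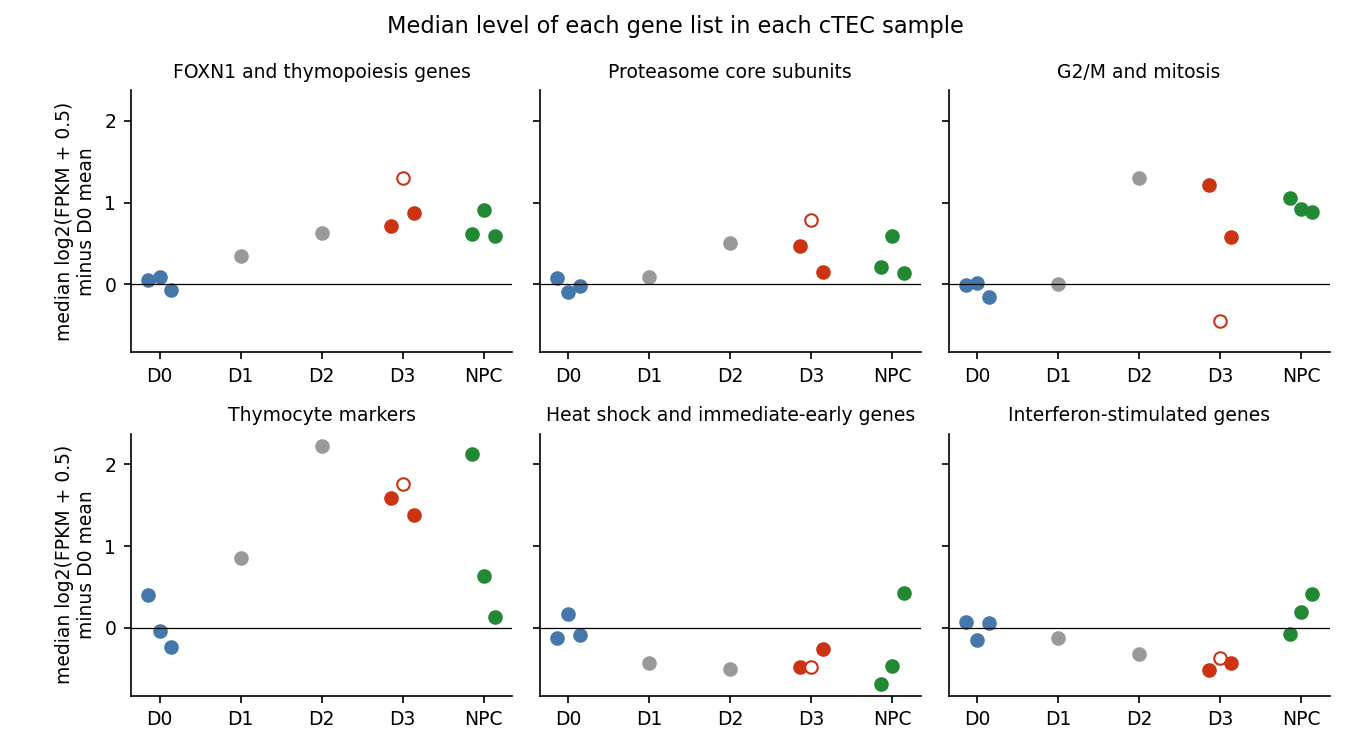
Median over each list's tested genes of log2(FPKM + 0.5) minus the D0 mean (y axis), for every sample of D0 (blue), D1 and D2 (grey), D3 (red, replicate 2 open) and NPC (green). In the thymopoiesis list the D3 samples lie between 0.71 and 1.30, above all D0 samples, and in the G2/M list D3 replicate 2 lies at -0.45 while the other D3 samples lie at 1.21 and 0.58.

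Genes of cell division gave different pictures by sum and by median. The summed level of the 46 listed G2/M and mitosis genes was above every D0 sample in all 3 D3 samples, at 264, 432 and 233 FPKM against 129 to 172 FPKM at D0, and it was highest in D3 replicate 2. Of the 45 that were tested, 25 had no count in D3 replicate 2, where 36.1% of all tested genes had none, against 0 to 8 in the other 5 libraries. The median log2 fold change was 0.54 with that library and 1.34 without it, against -0.25 and -0.01 over all genes. In all 3 D3 samples, 9 of the 45 genes (20%) lay above all D0 samples and none below, against 5.76% and 7.95% of all tested genes. In D3 replicates 1 and 3, 18 of 45 genes (40%) lay above all D0 samples and none below, where 11.5% of all tested genes lay above and 12.4% below. In the D2 sample 34 of 45 (75.6%) were above all D0 samples, against 28.1% of all genes. In the D1 sample 13 (28.9%) were above and 14 (31.1%) below, near the 29.5% and 31.9% of all genes. None was called (lowest adjusted p 0.19).

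*Top2a*, the topoisomerase of dividing cells, was 5.06, 4.71 and 1.71 FPKM at D0 and 11.7, 45.2 and 3.71 FPKM at D3, overlapping in 1 sample (1.55, SE 0.48, adjusted p = 0.19). *Mybl2*, a transcription factor of the cycle, was 1.23, 0.13 and 0.53 FPKM against 4.08, 2.76 and 2.14 FPKM (2.42, SE 0.79, adjusted p = 0.19), and *Aurkb*, a mitotic kinase, 0, 0 and 0.52 FPKM against 3.49, 2.63 and 1.25 FPKM. Both were chosen after their values were seen. *Pttg1*, the securin that guards sister chromatids, and *Racgap1*, needed to complete cytokinesis, were at 0.54 (SE 0.22, adjusted p = 0.20) and 0.30 (SE 0.38, adjusted p = 0.67). *Mad2l1*, a spindle checkpoint gene, had no count in D3 replicate 2 and changed sign with it, from -2.75 to 0.31.

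The 39 genes of G1/S and DNA replication had a median near 0 (-0.03, or 0.10 without D3 replicate 2), with *Pcna* at 0.53 (SE 0.21, adjusted p = 0.19) and *Rrm1* of nucleotide supply at 0.59 (SE 0.19, adjusted p = 0.19). The promoters of both cell cycle lists were searched for letters known from cell cycle promoters, without a test. CCAAT, on either strand, was found in the 250 bases before 69.2% of the 39 G2/M genes with an entry and 63.6% of the 33 G1/S genes, against 34.5% of all promoters. TTTGAA, the core of the cell cycle homology region, was in 25.6% and 12.1%, against 16.3% of all. The E2F letters TTCCCGC or TTGGCGC were in 7.69% and 36.4%, against 5.71% of all.

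The nuclear-encoded genes of the respiratory chain lay slightly higher. Of 61 nuclear-encoded subunits of complexes I to IV, 16 (26.2%) were above in all 3 D3 samples and none below. Over all tested genes 5.76% lay above and 7.95% below. The median log2 fold change was 0.22, or 0.20 without D3 replicate 2, against -0.25 and -0.01 over all genes. The 4 most abundant were *Cox5b* at 0.02 (SE 0.22, adjusted p = 0.96), *Cox8a* at 0.17 (SE 0.15, adjusted p = 0.53), *Uqcrh* at 0.30 (SE 0.21, adjusted p = 0.41) and *Cox6c* at 0.39 (SE 0.16, adjusted p = 0.19). None of the 61 was called, where 0.0252% of all tested genes were. Of 13 mitochondrially encoded mRNAs none lay above or below in all samples (0%), with a median of 0.17, or 0.27 without D3 replicate 2. Cytosolic ribosomal proteins had a median of -0.01 over 80 genes.

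**Figure D4:**
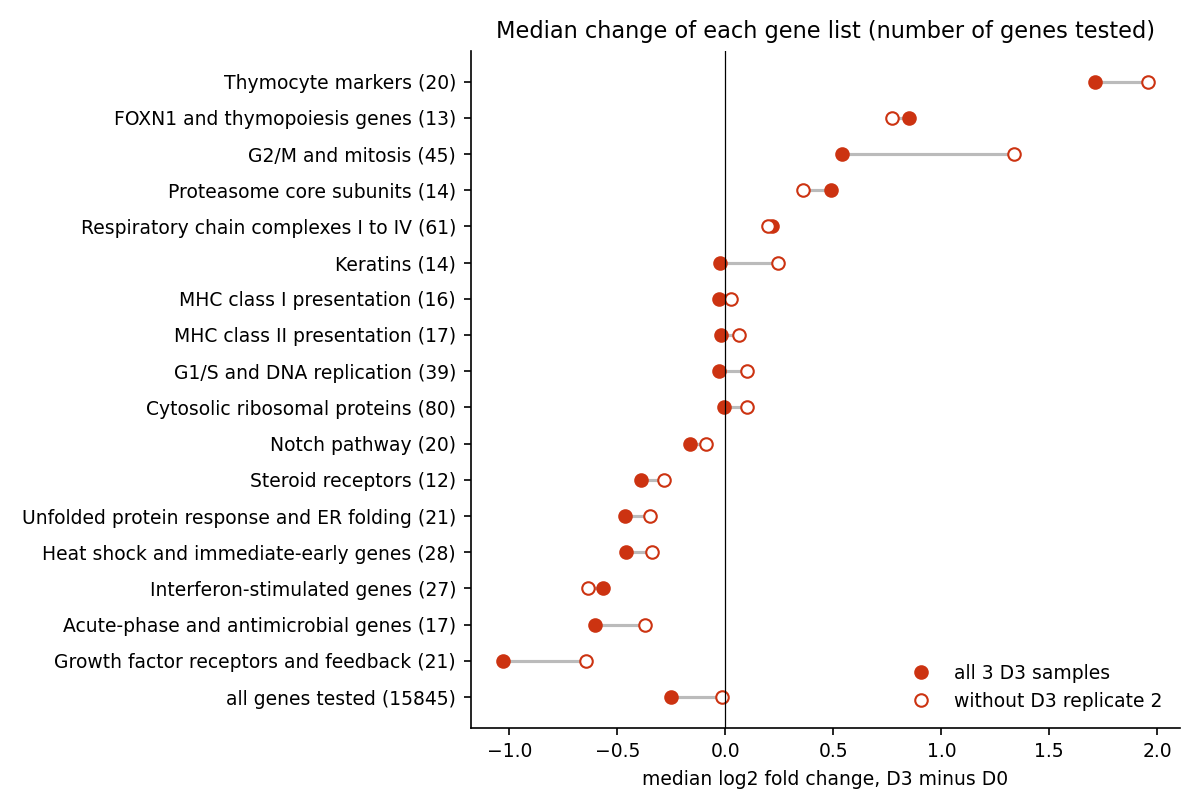
Median log2 fold change of D3 minus D0 (x axis) over the tested genes of 17 lists and over all tested genes, with the number of genes in brackets. Filled circles use all 3 D3 samples and open circles leave out D3 replicate 2. The lists above 0 in both fits are the thymocyte, thymopoiesis, G2/M, proteasome and respiratory chain genes.

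Stress and interferon genes lay lower at D3, without any call. Of 28 heat shock and immediate-early genes, 12 (42.9%) were below in all 3 D3 samples, where 7.95% of all genes were, and none above. The median was -0.46, or -0.34 without D3 replicate 2, against -0.25 and -0.01 over all genes. *Fos*, a subunit of the AP-1 factor, was 3059, 3333 and 2915 FPKM at D0 and 2596, 1936 and 2565 FPKM at D3 (-0.46, SE 0.34, adjusted p = 0.44). *Zfp36*, which destabilises mRNAs, was at -0.34 (SE 0.32, adjusted p = 0.56), *Junb* at -0.27 (SE 0.37, adjusted p = 0.70) and the chaperone *Hspa8* at -0.05 (SE 0.14, adjusted p = 0.88). *Jun* and *Egr1*, chosen after their values were seen, were at -0.43 (SE 0.39, adjusted p = 0.54) and -0.59 (SE 0.39, adjusted p = 0.37). The NPC samples were on both sides of the D0 level for this list, with medians from -0.68 to 0.42.

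Of 27 interferon-stimulated genes, 8 (29.6%) were below in all 3 D3 samples and 1 (3.7%) above, against 7.95% and 5.76% of all genes. The median was -0.57, or -0.64 without D3 replicate 2, against -0.25 and -0.01. *Ifit3*, an antiviral effector chosen after its values were seen, was 286, 234 and 302 FPKM at D0 and 133, 171 and 140 FPKM at D3 (-0.92, SE 0.29, adjusted p = 0.19). *Oasl2*, the most abundant member, was 571, 488 and 568 FPKM against 400, 282 and 418 FPKM (-0.44, SE 0.13, adjusted p = 0.19). *Mx1* was 8.93, 8.79 and 5.93 FPKM against 0.48, 0 and 2.12 FPKM. *Cxcl10*, a chemokine for activated T cells, overlapped at -0.32 (SE 0.51, adjusted p = 0.75).

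The endoplasmic reticulum chaperones lay lower too, without a call. Of 21 genes of the unfolded protein response, 6 (28.6%) were below in all 3 D3 samples and none above, against 7.95% and 5.76% of all genes. The median was -0.46, or -0.35 without D3 replicate 2, against -0.25 and -0.01. *Hspa5* was 396, 481 and 399 FPKM at D0, 298 at D1, 320 at D2 and 301, 226 and 294 FPKM at D3 (-0.65, SE 0.17, adjusted p = 0.15). *Hsp90b1* was at -0.52 (SE 0.16, adjusted p = 0.19) and *Calr* at -0.20 (SE 0.16, adjusted p = 0.45). *Manf*, chosen after its values were seen, was 115, 114 and 83.5 FPKM against 61.6, 68.8 and 74.1 FPKM.

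The counts in the following lists are to be read against the 7.95% of all genes that lay below in all samples, the 5.76% that lay above, the all-gene medians of -0.25, or -0.01 without D3 replicate 2, and the 36.1% of all genes without a count in that library. Of 17 acute-phase and antimicrobial genes 3 (17.6%) lay below and none above (median -0.60, or -0.37 without D3 replicate 2). *C3*, the central complement component, was 658, 624 and 588 FPKM at D0 and 354, 384 and 471 FPKM at D3 (-0.54, SE 0.21, adjusted p = 0.19). Of 12 steroid receptor genes 2 (16.7%) lay below and none above (median -0.39, or -0.28). Of 21 growth factor receptors and feedback genes 2 (9.52%) lay below, near the share of all genes, and none above, and the median was -1.03, or -0.64. 9 of the 21 had no count in D3 replicate 2. *Egfr* was at -0.52 (SE 0.15, adjusted p = 0.17) with overlapping samples. *Met*, the receptor of hepatocyte growth factor, was 3.62, 8.68 and 7.41 FPKM against 2.85, 2.84 and 2.09 FPKM (-1.36, SE 0.53, adjusted p = 0.19) and was chosen after its values were seen.

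Of 25 BMP and TGF-beta genes 6 (24%) lay below, against 7.95% of all genes, and none above, with a median of -0.41, or -0.13 without D3 replicate 2. 9 of the 25 had no count in that library, the same share as over all genes. Of 20 Notch pathway genes 2 (10%) lay below and 1 (5%) above, near the shares of all genes. *Hes1*, a Notch target, was 86.8, 102 and 94.9 FPKM at D0 and 62.9, 0.09 and 47.1 FPKM at D3, lower in all, and its log2 fold change was -4.01 with D3 replicate 2 (SE 1.36, adjusted p = 0.19) and -0.74 without it. Of 18 mTEC markers none lay above and 2 (11.1%) below. *Ccl21a*, the chemokine of the medulla, was 1 of these, at -0.42 (SE 0.24, adjusted p = 0.30). *Fezf2*, a transcription factor of medullary tolerance, was 25.2, 17.9 and 22.0 FPKM at D0 and 56.9, 63.7 and 21.6 FPKM at D3, with overlap in 1 sample (1.02, SE 0.29, adjusted p = 0.16).

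The same interval was measured in mTECs, the UEA1+ cells, with 3 samples of each day, and the difference between the cell types was tested as an interaction over 56 samples. limma-voom called no gene of 18394 (0%), with 2213 at an unadjusted p under 0.05, and edgeR called none, with 994. Of the cTEC genes, *Prss16* was 1.56 higher on the log2 scale in mTECs (SE 0.39), *Crip3* 1.60 (SE 0.30), *Tbata* 1.54 (SE 0.33) and *Fxyd2* 1.19 (SE 0.49). Their differences, cTEC minus mTEC, were 0.26 (SE 0.48), 0.28 (SE 0.41), 0.32 (SE 0.45) and 0.64 (SE 0.55), with adjusted p from 0.69 to 0.88. The D0 to D3 change of these genes was therefore not shown to be particular to cTECs.

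*Ccl25* was 1.04 higher in mTECs (SE 0.39), a difference of 0.84 (SE 0.51, adjusted p = 0.52), and *Ctsl* was 1.21 higher (SE 0.22), a difference of -0.37 (SE 0.30, adjusted p = 0.66). *Tcf7* was the most unequal of the genes higher at D3: it was at -0.61 in mTECs (SE 0.92), a difference of 3.23 (SE 1.03, adjusted p = 0.28). *Fat2* was at 0.14 in mTECs (SE 0.25), a difference of -1.12 (SE 0.35, adjusted p = 0.28). The call of 0 depended on single libraries: 44 genes were called without mTEC D3 replicate 3 and 5 without cTEC D3 replicate 1. All 44 had a positive difference, the cTEC change minus the mTEC change. That sign does not say in which cell type the level was higher.

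**Figure D5:**
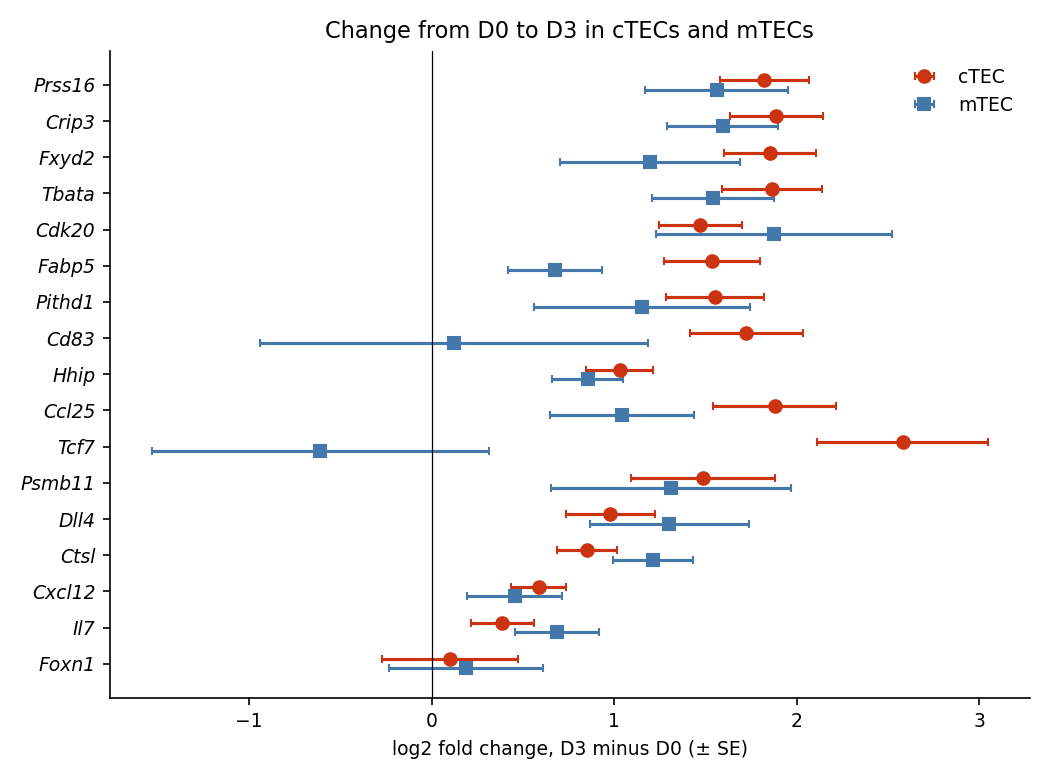
Log2 fold change of D3 minus D0 with its SE (x axis) in cTECs (red circles) and mTECs (blue squares) for the 11 genes higher at D3 at an adjusted p of 0.05 and 6 further genes of the thymopoiesis list. *Prss16*, *Crip3*, *Fxyd2* and *Tbata* lie above 0 in both cell types, and *Tcf7* lies at 2.58 in cTECs and -0.61 in mTECs.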

How the data were processed

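Poly-A RNA of sorted cTECs and mTECs was sequenced with a stranded kit. The authors demultiplexed with bcl2fastq 2.20, trimmed with Trimmomatic 0.35, aligned to GRCm38 with STAR 2.5.1b and quantified 50600 genes with RSEM 1.2.28; the annotation release is not given in the sources used here. The authors deposited, per sample, RSEM's expected count (not normalized), TPM and FPKM (both scaled to length and library). FPKM serves here for levels. Symbols came from GENCODE M21 (50376 identifiers matched).

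Expected counts were rounded and fitted with limma-voom (R 4.3.3, limma 3.58.1) after TMM scaling (edgeR 4.0.16), over all 28 cTEC samples with a mean for each time point (12 residual degrees of freedom), for the 15845 genes whose mean FPKM over those samples reached 0.5. The call required a 2-fold change and p, adjusted by Benjamini and Hochberg over all genes tested, no higher than 0.01. "Rose" and "fell" are used of called genes. Total counts of the 6 samples were 6877077 to 32439692, and this depth limits genes of few counts. DESeq2 1.42.0, edgeR and other settings were alternatives. The fits were also run on simulated counts, in which no library was made to lack genes as D3 replicate 2 did. That run cannot show how the fits handle such a library.

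The samples, genes and lists were chosen with earlier results of these data known. Named genes were the largest called changes, the thymopoiesis genes, and from each list its called members and up to 4 of the most abundant; others are marked as chosen after their values were seen. Lists were described by counts and medians, without a set test.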

Additional observations from a re-analysis of the deposited data

How the results depend on the processing

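The number of genes called between D3 and D0 (4, all higher) was 4 with the 18 samples of replicated time points, without TMM and with DESeq2's size factors, 5 with sample quality weights, 5 at a mean FPKM of at least 5 (chosen after seeing the data), 6 without the FPKM filter (2 higher, 4 lower) and 3 with the filter over the 6 samples. It was 0 with edgeR, with the 6 samples alone, with limma-trend on log2(FPKM + 0.5), log2(FPKM + 0.1) and log2(TPM + 0.5), and, both chosen after seeing the data, with libraries drawn down to the smallest (6456109 counts) and at a mean FPKM of at least 5 without D3 replicate 2. It was 52 with DESeq2 (37 higher, 15 lower), 14 at an adjusted p of 0.05 and 15 at 0.05 with no minimum fold. Leaving out 1 of the 6 samples gave from 0 to 32 calls: 0 without D0 replicate 1, D0 replicate 3 or D3 replicate 2, 2 without D0 replicate 2, 14 without D3 replicate 3 and 32 without D3 replicate 1. The cause was not tested. Replicate numbers did not pair the samples (correlations of deviations -0.04, -0.02 and -0.003), and with the replicate number as a block 4 genes were called over 28 samples and 2 over the 6 alone. These numbers are the order of the samples within a group. They differ from the numbers in some sample titles, as for D0 replicate 3.

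The interaction with mTECs called 0 genes with every alternative except without cTEC D3 replicate 1 (5) and without mTEC D3 replicate 3 (44), so leaving out 1 sample gave from 0 to 44. It called 0 with a block for the mouse. There, samples of the same day and the same number in their titles were taken as the same mouse, which the labels do not state.

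The 15 genes at an adjusted p of 0.05 kept their direction in every alternative in which they were tested. Over the 23 alternatives *Prss16* was called in 13 (log2 fold change 1.63 to 2.19, adjusted p 2.9e-09 to 0.053), *Fxyd2* in 11 (1.62 to 2.13), *Crip3* in 10 (1.71 to 2.20) and *Tbata* in 9 (1.63 to 2.21). The thymopoiesis list kept a median of 0.75 to 1.02, the heat shock list -0.58 to -0.32 and the interferon list -0.77 to -0.50, while that of G2/M ran from 0.07 to 1.34.

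Changes of sign were found for 8 genes near 0 and for *Mad2l1*, which was at -2.75. With quality weights *B2m* was at 0.088, *Hspa8* at 0.057 and *Mad2l1* at 0.19, and at a mean FPKM of at least 5 without D3 replicate 2 at 0.058, 0.061 and 0.32. *Hspa8* was at 0.00079 with DESeq2, and at 0.071 with limma-trend on FPKM with either pseudocount. On TPM *Cd74* was at -0.084, *H2-Ab1* at -0.031, *Krt5* at -0.067 and *Cox5b* at -0.074. Without the FPKM filter *Cd74* was at -0.044, *Krt5* at -0.49 and *Cox5b* at -0.020. *Kitl* was at -0.029 under the replicate block and -0.0041 after drawing down. Leaving out 1 sample each gave -0.039 to 0.30 for *Foxn1*, -0.12 to 0.21 for *Kitl*, -0.021 to 0.045 for *Cd74*, -0.19 to 0.062 for *B2m*, -0.22 to 0.22 for *Krt5*, -4.15 to 0.31 for *Mad2l1*, -0.14 to 0.059 for *Hspa8* and -0.23 to 0.28 for *Cox5b*.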
